A study of Mus musculus with 6 samples.

Results

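The fatty acid desaturases and elongases are the enzymes that put double bonds into fatty acyl chains and lengthen them. Of 19733 genes measured, 10 were followed here: the stearoyl-CoA desaturases Scd1, Scd2, Scd3 and Scd4, the fatty acid desaturases Fads1, Fads2 and Fads3, and the elongases Elovl1, Elovl5 and Elovl6. All 10 were found, each by the 1 probe set that the platform annotation assigns to that gene alone, so no choice between probe sets arose. The genes belong together by function, but the family was chosen by a rule that looked at their levels and at the differences between Cre and EV on these arrays, so those differences are given as a description, with no p-value. Their SE, their intervals and whether a gene was called describe these arrays and are no independent support.

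The cells were pre-B cells from mouse bone marrow into which BCR-ABL1, the fusion kinase of a form of acute lymphoblastic leukaemia, had been transduced, and they carried floxed Ppp2r1a alleles (Ppp2r1afl/fl) on every array. In the Cre group, 3 arrays, they also received the recombinase Cre, which removes floxed Ppp2r1a, the gene of a scaffold subunit in protein phosphatase 2A (PP2A). In the EV group, 3 arrays, they received an empty vector and kept Ppp2r1a. No array held Cre in cells without floxed alleles, so Cre itself and the loss of Ppp2r1a cannot be told apart, and the labels give neither the time after transduction nor the age of the mice. The arrays are numbered repeats, and the labels do not name separate cultures behind them, so each spread may be technical.

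Fatty acid synthase makes saturated palmitate. Elovl6 lengthens palmitate to stearate, and the stearoyl-CoA desaturases place the first double bond, which turns stearate and palmitate into oleate and palmitoleate. Fads2 and Fads1 act in turn with Elovl5 to make polyunsaturated fatty acids such as arachidonic acid from dietary precursors, and Elovl1 extends saturated and monounsaturated chains to very long ones. The desaturases take electrons from cytochrome b5 and use oxygen, and many genes of this pathway are known targets of the transcription factor SREBP-1, encoded by Srebf1.

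Values are log2 expression levels, on which a difference of 1 is a doubling. They are comparable between arrays for 1 gene and not between genes, since each probe set has its own brightness. The array medians lay between 5.22 and 5.27. Markers of pre-B cells were bright: the 10 measured of 11 listed read between 6.49 and 12.45 on the Cre arrays and between 8.73 and 12.46 on the EV arrays. In that list Rag1 differed by -2.09 (limma adjusted p = 0.000155) and Dntt by -0.48 (limma adjusted p = 0.0300), and the other 8 did not pass. Summed over the list, these levels were lower on every Cre array (106.1 to 107.0) than on any EV array (108.7 to 109.3). Only 4 of the 10 were below 0 in difference, and the list median was 0.02. The lower sum thus rests mostly on Rag1 and is no general shift of these markers. Adipocytes are known for high Scd1, so their markers were set beside it. The 6 measured of 7 read between 2.61 and 5.60 on the Cre arrays and between 2.47 and 5.60 on the EV arrays, their levels summed to between 23.9 and 24.4 on the Cre arrays and between 23.6 and 24.7 on the EV arrays, and none passed the test. Markers of stroma, myeloid cells, T cells and erythroid cells were listed too, and none of those measured passed. Of the 7 myeloid markers 6 were above 0 in difference, with levels between 2.71 and 4.74 on the Cre arrays and between 2.60 and 4.57 on the EV arrays. Their sum was higher on every Cre array (26.4 to 27.3) than on any EV array (25.9 to 26.2), and their part in the results below was not tested. The sums of stroma markers were 30.6 to 31.0 in Cre and 30.9 to 31.2 in EV, those of T cell markers 21.0 to 22.3 in Cre and 21.2 to 22.1 in EV, and those of erythroid markers 13.2 to 14.2 in Cre and 13.4 to 14.3 in EV. Levels made with RMA have no true zero and no detection calls, so no marker can be said to be absent.

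Scd1 was much lower in the Cre cells, Scd2 was moderately lower, and the other 8 genes differed by at most 1.14-fold in either direction. Across the 10 genes the differences ran below 0 in 8 and above 0 in 2, with a median of -0.14 on the log2 scale, beside -0.003 over all genes, of which 50.9% were below 0. Called at a limma adjusted p below 0.05 over all genes were 2 of the 10, Scd1 and Scd2, both lower in Cre, where the same rule called 3.49% of all genes. Since the family was chosen with these differences known, nothing is read from that count. No overlap between Cre and EV arrays was seen for 6 of the 10, all lower in Cre, where 22.5% of all genes did not overlap in either direction and 12.2% were lower in Cre without overlap.

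**Figure D1:**
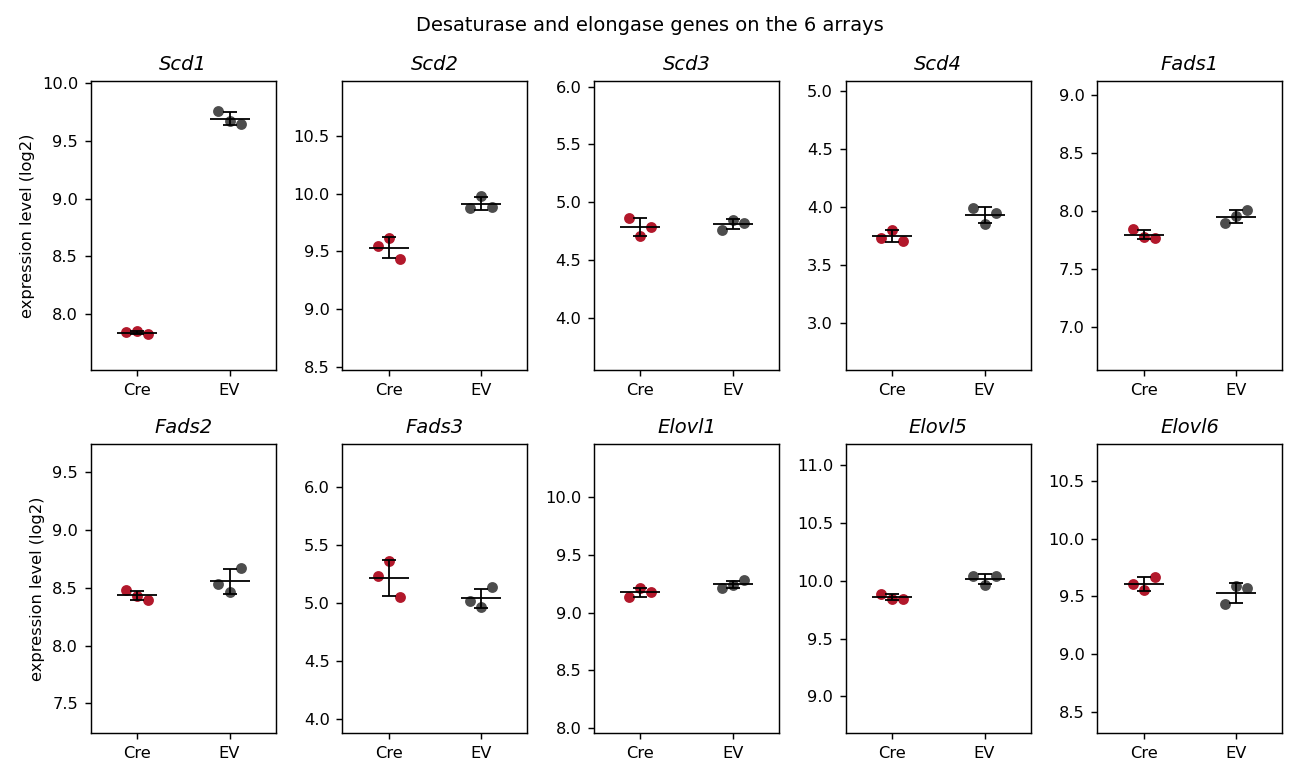
Log2 expression level of each of the 10 genes on the 3 Cre arrays (red) and the 3 EV arrays (grey), with the mean (long bar) and the SD (capped line); each panel spans 2.5 log2 units around its own centre. The closest Scd1 points of the groups lie 1.80 apart, while those of Scd3, Fads2, Fads3 and Elovl6 overlap.

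Scd1 encodes the main stearoyl-CoA desaturase of liver and fat. Its level was 7.85, 7.85 and 7.83 on the Cre arrays, against 9.75, 9.67 and 9.65 on the EV arrays. The groups lay 1.80 apart at their closest, and the Cre arrays spanned only 0.03. It averaged 7.84 ± 0.01 in Cre and 9.69 ± 0.06 in EV (SD, n = 3 each), a difference of -1.85 (SE 0.06; 95% interval -2.0 to -1.7), or 3.61-fold lower. That left 27.7% of the EV signal in the Cre cells. Of the 19733 genes tested, 18 had a larger fall. With any 1 array left out the difference stayed between -1.87 and -1.82. In bulk RNA, fewer cells that express a gene and less RNA per cell cannot be told apart, here and in the values that follow.

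Scd2 encodes a second isoform, known in mice for its expression in brain and in newborn tissues. It read 9.55, 9.62 and 9.44 on the Cre arrays, against 9.87, 9.98 and 9.89 on the EV arrays. All 3 Cre arrays lay below all 3 EV arrays, with a gap of 0.26. The means were 9.53 ± 0.09 in Cre and 9.91 ± 0.05 in EV (SD, n = 3 each), a difference of -0.38 (SE 0.07; 95% interval -0.55 to -0.21), or 1.30-fold lower. The difference kept its size when arrays were left out (-0.42 to -0.33), but in each of those 6 fits Scd2 was no longer among the called genes, and the count of called family members was then 1.

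Scd3, an isoform known from skin, was dim and level. It read 4.86, 4.71 and 4.79 on the Cre arrays and 4.76, 4.85 and 4.82 on the EV arrays. The groups overlapped fully, with a difference of -0.02 (SE 0.07; 95% interval -0.18 to 0.14), which turned to 0.02 without Cre replicate 2. Scd4, an isoform known from heart, read 3.73, 3.81 and 3.71 on the Cre arrays and 3.99, 3.86 and 3.95 on the EV arrays. Its groups were separated by only 0.05, with a difference of -0.18 (SE 0.07; 95% interval -0.34 to -0.03). Both genes lay below the array medians in either group, where a log2 difference can understate a change in RNA.

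**Figure D2:**
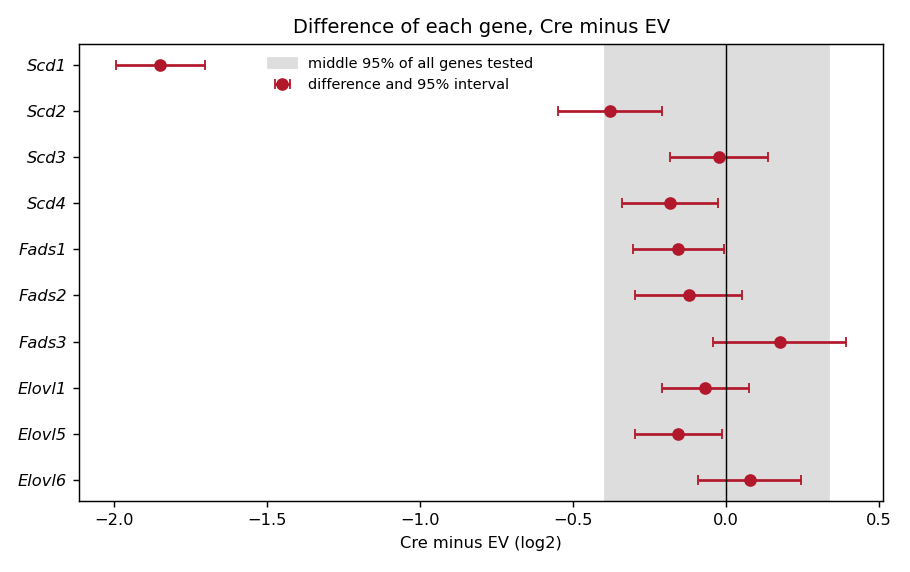
Difference of each gene, Cre minus EV on the log2 scale, with its 95% interval from the limma fit (red), over the band that holds the middle 95% of all 19733 genes (grey, -0.40 to 0.34). Scd1 at -1.85 lies far outside the band, Scd2 at -0.38 lies just inside its lower edge and the other 8 points lie within it.

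The genes of polyunsaturated fatty acid synthesis shifted little. Fads2, the entry enzyme that desaturates linoleic and alpha-linolenic acid, read 8.48, 8.42 and 8.40 on the Cre arrays and 8.53, 8.46 and 8.67 on the EV arrays. The lowest EV array lay below the highest Cre array, and the difference was -0.12 (SE 0.07; 95% interval -0.30 to 0.05), or -0.064 without EV replicate 3. Fads1, the later desaturase of that route, which makes arachidonic acid, read 7.85, 7.78 and 7.77 on the Cre arrays and 7.90, 7.95 and 8.01 on the EV arrays. Its groups lay 0.05 apart, with a difference of -0.16 (SE 0.06; 95% interval -0.31 to -0.01). Fads3, a relative that acts on sphingoid bases, read 5.23, 5.36 and 5.05 on the Cre arrays and 5.01, 4.97 and 5.14 on the EV arrays. Fads3 averaged 5.21 in Cre and 5.04 in EV, also below the array medians. It was the most variable member, with an SD of 0.16 in Cre, and its groups overlapped around a difference of 0.18 (SE 0.09; 95% interval -0.04 to 0.39), which was 0.10 without Cre replicate 2.

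The 3 elongases were bright in both groups and differed by at most 0.16. Elovl5, which lengthens polyunsaturated chains between the steps of Fads2 and Fads1, read 9.89, 9.85 and 9.84 on the Cre arrays and 10.04, 9.96 and 10.04 on the EV arrays. The groups lay 0.08 apart, and the difference of -0.16 (SE 0.06; 95% interval -0.30 to -0.01) was the same to 2 decimals as that of Fads1. Elovl6, which supplies stearate to the stearoyl-CoA desaturases, was slightly higher in Cre, at 9.61, 9.55 and 9.67 on the Cre arrays and 9.43, 9.59 and 9.57 on the EV arrays. These groups overlapped, with a difference of 0.08 (SE 0.07; 95% interval -0.09 to 0.24), or 0.028 without EV replicate 1. Elovl1 read 9.14, 9.21 and 9.18 on the Cre arrays and 9.21, 9.24 and 9.28 on the EV arrays. Its highest Cre array and lowest EV array were only 0.001 apart, and the difference was -0.07 (SE 0.06; 95% interval -0.21 to 0.07).

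Of the 10 genes, 7 lie on mouse chromosome 19, in a cluster of Scd genes and a cluster of Fads genes. In the RefSeq order the Scd genes run Scd3, Scd2, Scd4 and Scd1, so the gene with the large fall and the one with the moderate fall have the dim Scd4 between them. The 4 measured protein-coding genes on each side of either cluster were added after the data had been seen. None of the 8 around the Scd genes passed the test, and their differences lay between -0.09 and 0.18. Pkd2l1, an ion channel gene next to Scd3, differed by -0.09 (SE 0.10), and Wnt8b, a WNT ligand gene next to Scd1, by 0.10 (SE 0.06). None of the 8 around the Fads genes passed either, with differences between -0.26 and 0.24. Fen1, a flap endonuclease gene next to Fads1, differed by 0.02 (SE 0.06).

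**Figure D3:**
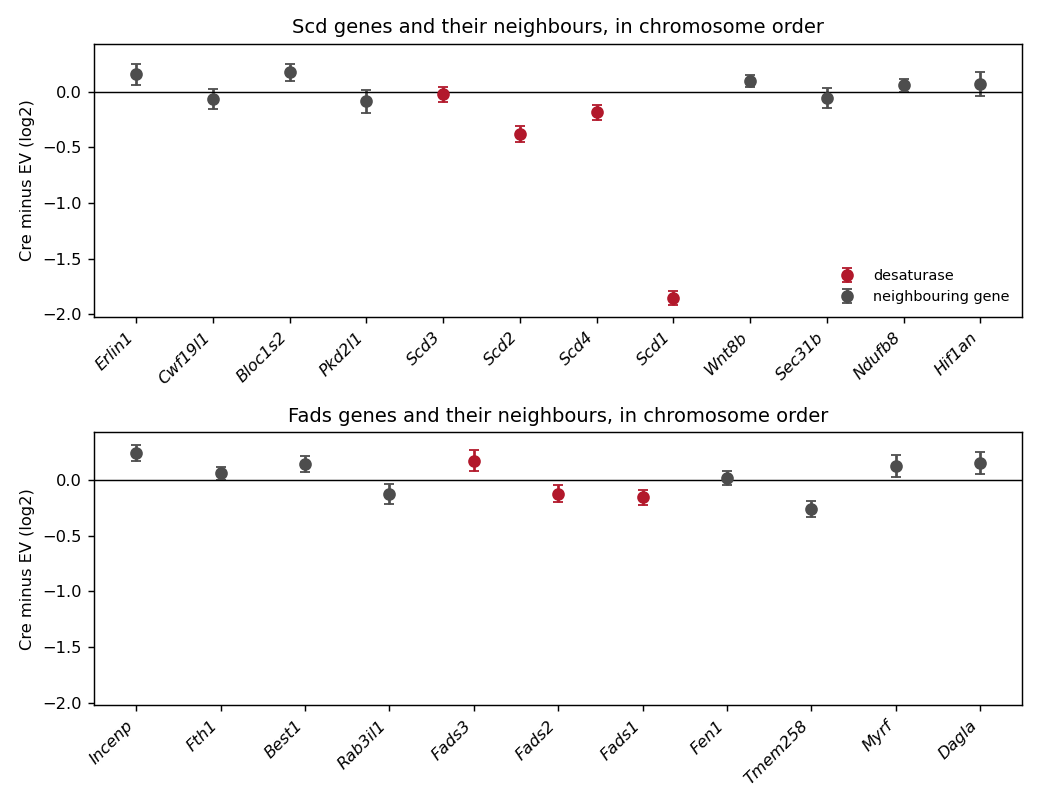
Difference of each desaturase gene (red) and of its measured protein-coding neighbours (grey) in chromosome order, Cre minus EV on the log2 scale with SE bars; genes are evenly spaced and not to genomic scale. Scd1 stands at -1.85 between Scd4 at -0.18 and Wnt8b at 0.10, and the genes around the Fads cluster stay between -0.26 and 0.24.

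RefSeq promoters (build GRCm38.p6) were at hand for 7 of the 10 genes, Scd3, Scd4, Fads2, Fads3, Elovl1, Elovl5 and Elovl6, in 8 entries since Elovl1 has a pair of start sites. The 250 bases before the start are shown for Scd3 and Scd4, the dim genes of the Scd cluster. They are also shown for Elovl5 and Fads3, a bright and a dim gene. Their small differences had opposite signs, and neither gene was called. Capitals mark matches, on either strand, to the NF-Y box CCAAT, the E-box CACGTG and the GC box GGGCGG. Sequences run 5′ to 3′ on the strand of the gene.
Scd3 (chr19:44203038-44203287, plus strand): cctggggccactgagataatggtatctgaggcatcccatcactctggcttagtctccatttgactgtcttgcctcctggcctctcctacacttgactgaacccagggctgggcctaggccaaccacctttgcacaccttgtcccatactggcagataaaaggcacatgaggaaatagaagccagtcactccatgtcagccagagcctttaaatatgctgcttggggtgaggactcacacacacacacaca
Scd4 (chr19:44333076-44333325, plus strand): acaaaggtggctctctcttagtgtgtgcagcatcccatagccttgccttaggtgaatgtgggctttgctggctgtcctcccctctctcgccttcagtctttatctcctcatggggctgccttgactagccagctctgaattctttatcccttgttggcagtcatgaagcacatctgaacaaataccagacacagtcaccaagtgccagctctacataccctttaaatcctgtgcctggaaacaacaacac
Elovl5 (chr9:77917115-77917364, plus strand): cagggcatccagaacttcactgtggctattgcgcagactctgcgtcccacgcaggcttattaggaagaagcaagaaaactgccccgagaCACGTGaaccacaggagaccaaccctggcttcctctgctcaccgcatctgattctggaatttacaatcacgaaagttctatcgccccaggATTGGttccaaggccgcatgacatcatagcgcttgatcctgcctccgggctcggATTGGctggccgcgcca
Fads3 (chr19:10041298-10041547, plus strand): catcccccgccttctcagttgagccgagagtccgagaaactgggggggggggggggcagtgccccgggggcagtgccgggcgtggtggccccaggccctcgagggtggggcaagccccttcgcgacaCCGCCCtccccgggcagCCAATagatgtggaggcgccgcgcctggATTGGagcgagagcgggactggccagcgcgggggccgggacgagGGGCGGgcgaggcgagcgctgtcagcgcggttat

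The promoters of Scd3 and Scd4 held none of these letters. That of Elovl5 held 2 NF-Y boxes, 71 to 67 and 17 to 13 bases before the start, and 1 E-box, 161 to 156 bases before it. That of Fads3 held 2 NF-Y boxes, 106 to 102 and 78 to 74 bases before the start, and 2 GC boxes. Among the others, Fads2 held 1 GC box, the upstream start of Elovl1 1 NF-Y box and 5 GC boxes, the downstream start of Elovl1 2 GC boxes, and Elovl6 none of the 3 motifs. The SREBP site TCACNCCAC was found in none of the 8 entries. Scd1, Scd2 and Fads1 had no entry, so the called genes Scd1 and Scd2 were not searched for any motif. The hypoxia response core ACGTG, searched as well, occurred in 1 of the 8 entries, within the E-box of Elovl5, on both strands. With the 50 bases after the start counted as well it occurred in 3 of the 8, those of Elovl5, Elovl6 and Scd3. Of 32851 promoters of this length, 33.8% held the NF-Y box, 32.7% the GC box, 16.6% the hypoxia response core, 6.02% the E-box and 1.05% the SREBP site. These are letter matches in a short window and say nothing of binding.

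Among the genes ranked, the one whose 6 array values lay closest to those of Scd1 was Ppp2r1a, the deleted gene itself. Left out of the ranking were predicted genes, unnamed clones, microRNAs and other small RNAs. Olfactory and vomeronasal receptors and immunoglobulin variable segments were left out too. Each gene was centred on its own mean, and the root mean square distance to Scd1 was 0.12 log2 for Ppp2r1a (Pearson r = 0.998 over the 6 arrays, given as a description). Ppp2r1a read 7.12, 6.98 and 6.92 on the Cre arrays and 9.06, 9.05 and 9.06 on the EV arrays, a difference of -2.05 (SE 0.07). Next came Casd1, which acetylates sialic acids (0.13), Gnai1, an inhibitory G protein subunit (0.13), Pcdh11x, a protocadherin (0.13), and Cd248, the surface glycoprotein endosialin (0.16). Their differences were -1.94 (SE 0.10), -1.87 (SE 0.10), -1.64 (SE 0.10) and -1.79 (SE 0.12). With 6 arrays in 2 groups, this closeness mostly reflects a like-sized gap between the groups.

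**Figure D4:**
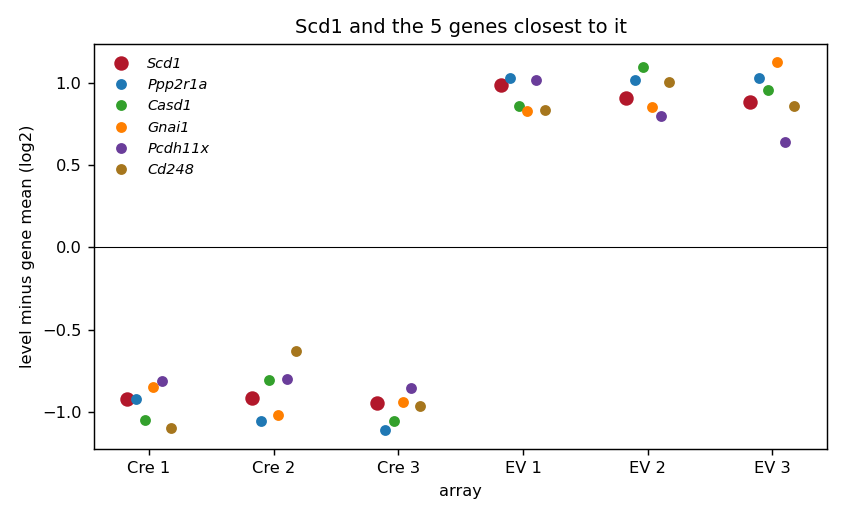
Log2 level minus the gene's own mean on each of the 6 arrays for Scd1 and 5 other genes. Of the genes ranked, these 5 had the smallest root mean square distance to Scd1 (0.12 to 0.16). All 6 genes are below their mean on the 3 Cre arrays and above it on the 3 EV arrays, and Ppp2r1a lies closest to Scd1.

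Elsewhere in fatty acid metabolism, 2 of 97 measured genes in 7 lists passed the test, and both rose: Eci1 and Lpcat2. The lists hold none of the 10 genes above. Over all genes 1.35% were called higher and 2.14% called lower in Cre, so 2 of 97 is near the background.

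Genes that work directly with the desaturases and elongases did not pass. Of 11 measured genes of the elongation cycle, 0 rose and 0 fell by limma, 2 had an unadjusted p below 0.05, and the median difference was -0.08. Elovl4, an elongase of very long chains, averaged 5.77 ± 0.09 in Cre and 6.01 ± 0.03 in EV (SD, n = 3 each; difference -0.23, SE 0.07; limma adjusted p = 0.140). Hsd17b12, the ketoacyl-CoA reductase of the cycle, differed by -0.18 (SE 0.07; limma adjusted p = 0.285). Of 10 genes of electron transfer to desaturases and other desaturases, 0 passed in limma, 0 had an unadjusted p below 0.05, and the median was -0.08. Degs1, the dihydroceramide desaturase, differed by -0.20 (SE 0.09; limma adjusted p = 0.316), and Cyb5r4, a cytochrome b5 reductase, by 0.13 (SE 0.08; limma adjusted p = 0.492). Without EV replicate 3 the difference of Degs1 was -0.12, and without EV replicate 2 that of Cyb5r4 was 0.059.

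The supply of palmitate and the regulators of the pathway did not pass either. Of 12 genes of de novo fatty acid synthesis, 0 passed in limma, 1 had an unadjusted p below 0.05, and the median was -0.03. That gene was Slc25a1, the mitochondrial citrate exporter, with 9.82, 9.70 and 9.82 on the Cre arrays and 10.03, 10.06 and 10.04 on the EV arrays (difference -0.27, SE 0.07; limma adjusted p = 0.0794). Its groups did not overlap. Acaca, acetyl-CoA carboxylase, differed by -0.12 (SE 0.08; limma adjusted p = 0.564), or by -0.056 without EV replicate 2. Of 13 measured of 15 regulators, 0 passed in limma, 3 had an unadjusted p below 0.05, and the median was -0.01. Mlx, the partner of ChREBP, differed by 0.23 (SE 0.07; limma adjusted p = 0.135), and Mbtps1, the protease that first cuts SREBPs, by -0.24 (SE 0.08; limma adjusted p = 0.197). Srebf1, named after its values were seen because it encodes SREBP-1, read 6.84, 6.92 and 6.95 on the Cre arrays and 7.07, 7.08 and 7.07 on the EV arrays, a difference of -0.17 (SE 0.06; limma adjusted p = 0.239).

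The 2 genes that rose act after the desaturases. Eci1, a mitochondrial isomerase that shifts the double bond of unsaturated fatty acids so that they can be oxidised, read 6.93, 6.54 and 6.71 on the Cre arrays, against 5.61, 5.80 and 5.60 on the EV arrays. All Cre arrays were higher, 2.08-fold on average (difference 1.06, SE 0.11; limma adjusted p = 0.0024), and it was 1 of 20 measured oxidation genes to pass, in a list with a median of -0.02 and 5 unadjusted p below 0.05. Eci2, the related peroxisomal isomerase, ran the other way, with 6.78 ± 0.06 in Cre and 7.08 ± 0.05 in EV (SD, n = 3 each; difference -0.31, SE 0.07; limma adjusted p = 0.0509), just short of the threshold. Lpcat2, which reacylates lysophosphatidylcholine, read 5.55, 5.58 and 5.71 on the Cre arrays, against 4.41, 4.58 and 4.93 on the EV arrays. It rose 1.96-fold (difference 0.97, SE 0.13; limma adjusted p = 0.00735), the 1 gene to pass of 18 measured of 21 in acyl activation and incorporation, where the median was -0.05 and 6 had an unadjusted p below 0.05. Its EV levels lay below the array medians. Lpcat4 of the same family differed by -0.42 (SE 0.12; limma adjusted p = 0.124). Eci1 and Lpcat2 passed in each of the 6 fits with 1 array left out.

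Genes that release arachidonic acid and turn it into eicosanoids did not pass: of 13 measured of 14, 0 passed in limma, 1 had an unadjusted p below 0.05, and the median was -0.02. The 1 was Alox5ap, which presents arachidonic acid to 5-lipoxygenase, with 6.97, 6.76 and 7.10 on the Cre arrays and 7.38, 7.28 and 7.35 on the EV arrays (difference -0.40, SE 0.09; limma adjusted p = 0.0736). Ptges, a prostaglandin E synthase, differed by 0.26 (SE 0.13; limma adjusted p = 0.392), or by 0.11 without EV replicate 3.

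**Figure D5:**
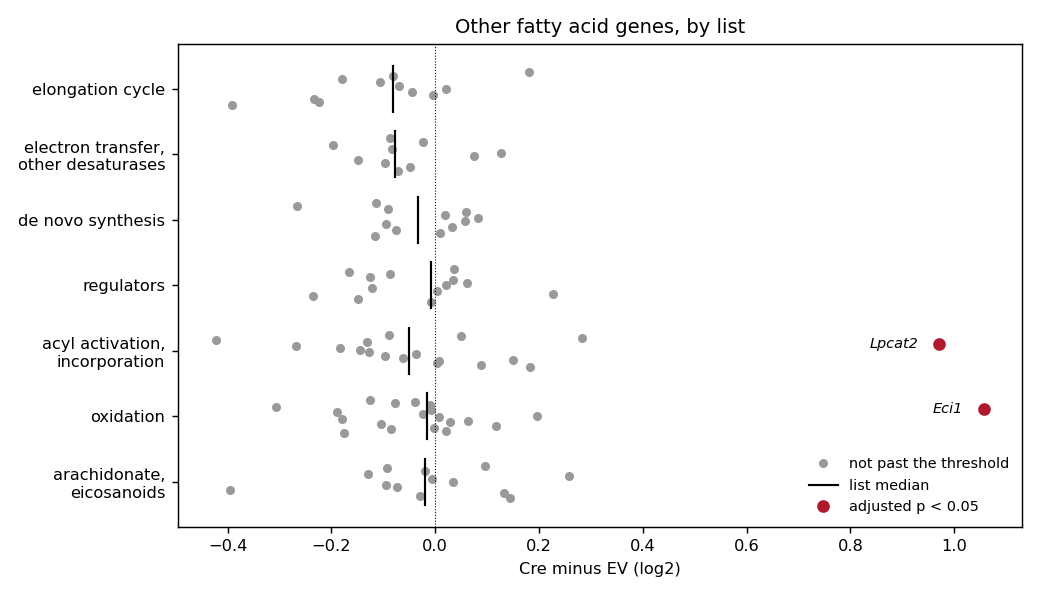
Difference, Cre minus EV on the log2 scale, of each of the 97 measured genes in 7 lists of fatty acid metabolism (grey; red where the limma adjusted p was below 0.05), with the list median as a vertical bar. Eci1 at 1.06 and Lpcat2 at 0.97 stand apart on the right, and the list medians lie between -0.08 and -0.01.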

How the data were processed

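Expression was measured on 6 one-colour Affymetrix arrays, 3 Cre and 3 EV, grouped by title. The deposited values are log2 levels that the authors made with RMA, per the submitters' processing notes; its version and the genome build were not given in the sources used here. RMA gives the arrays 1 common distribution of intensities before these are summarised to levels, so a change is always relative to other genes. Precision is limited by the number of arrays.

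Of 25006 probes, 21467 had 1 gene symbol in the platform annotation, 1521 had several and 2018 none. Of the first, 21386 were matched to RefSeq by gene identifier. Taking the probe with the highest mean over 6 arrays left 19733 genes. Groups were compared with limma 3.58.1 in R 4.3.3 (lmFit, eBayes, no block or filter), with Benjamini-Hochberg adjustment over all genes and a threshold of 0.05. SE and 95% intervals come from that fit, which was tested on simulated data. There it called 46% of the genes given a log2 change of 0.5 and 85% of those given 1. Smaller changes were not simulated, so a gene that did not pass may still differ. Tables and plots used Python 3.11.15, pandas 2.3.3 and matplotlib 3.10.9.

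The members and lists were chosen with earlier results of these data known. From each list up to 4 called genes with the smallest p were named, or, where fewer than 2 passed, the 2 with the smallest p. Alternatives were the repeat number as a block, other normalizations, filters, moderation, weights, probe handling and each array left out.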

Additional observations from a re-analysis of the deposited data

How the results depend on the processing

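The difference of Scd1 lay between -1.87 and -1.82 in the 9 other settings and the 6 fits with 1 array left out. Since the family was chosen on this contrast, that it was called in all of them is a description and no support. The count of called family members, 2, fell to 1 with the repeat number as a block and to 1 without any 1 array, Scd2 being the gene lost. With eBayes trend and robust settings it was 3, Elovl5 being added. The genes called over the whole table numbered 425 with the replicate block, 1295 without the lowest 50% of genes and 1558 with trend and robust settings, against 689, and 362 (without EV replicate 2) to 424 (without EV replicate 3) with 1 array left out. Of the 97 other fatty acid genes, 2 were called in the report, 5 without the lowest 25% of genes, 10 without the lowest 50%, 9 with trend and robust settings, 3 with the mean of all probes or with all probes kept (Eci2 added), and 2 in each fit with 1 array left out. The filter on the lowest 50% removed Lpcat2 itself. Eci2, Slc25a1 and Alox5ap, all lower in Cre, were among those added under both filters and under trend and robust settings, so that Eci2 passed in 5 of the 9 settings. Fewer genes were tested under the filters, and SEs were smaller there too (Slc25a1 0.065 in the report, 0.061 without the lowest 25%, 0.055 without the lowest 50%). What added genes under the filters or the trend and robust settings was not tested. Scd3 ranged from -0.061 to 0.018 with 1 array left out, turning positive without Cre replicate 2, and no other direction among the genes named from the family and the lists changed. The scaling alternatives moved the median of all genes by at most 0.01.

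Same-numbered Cre and EV arrays did not deviate together (r = 0.009, -0.012 and 0.03 for repeats 1, 2 and 3), and 2 of 6 arrays correlated best with their own number. The labels do not say what same-numbered repeats share, and these correlations cannot settle it. Each family member has 1 probe, so averaging probes left these values as they were. Counting the 50 bases after the start as well, the share of all promoters with each motif stayed within 1.5 times, while the family entries with the hypoxia response core numbered 3 of 8 in place of 1. An identity comparison of the proteins was not run. Differences in the 8 uncalled genes were at most 0.18, beside SEs of 0.06 to 0.09.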
